A study of Homo sapiens with 22 samples.

Results

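Gained promoter H3K27ac regions were stretches of chromatin near a transcription start site that carried a peak of histone H3 lysine 27 acetylation in both knockdown libraries and in neither control library. The cells were TC-32, an established Ewing sarcoma line that carries the fusion oncogene EWSR1::FLI1. Control cells (siNEG) received 20 nM of a non-targeting siRNA, and knockdown cells (siFLI1) received 20 nM of an siRNA against FLI1, used in the series to deplete the fusion. Both arms used 1 cell line and 1 siRNA each, and the time between transfection and crosslinking was not given in the sources used here. Peak lists covered 14 immunoprecipitated libraries: 2 a group for H3K27ac, H3K4me3 and the transcription factor ETS1, plus 1 further H3K27ac library an arm whose antibody label reads ab4729 and whose replicate is named 1a. That label also carries the catalogue number of the antibody of the other H3K27ac libraries, so which antibody this pair received is unclear. The other 8 of the 22 samples were inputs and were not analysed here. Replicates were numbered in the labels, which do not say whether they came from separate cultures, so the spread between them may be technical.

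The 4 H3K27ac lists of replicates 1 and 2 merged into 90572 regions on chromosomes 1 to 22 and X when peaks that shared at least 1 bp were joined. Of these, 21383 were promoter regions, with a centre within 1 kb of a GENCODE release 44 transcript start on hg38. The members were the 1447 promoter regions present in both siFLI1 lists and absent from both siNEG lists, which is 6.77% of promoter regions. They were thus selected on H3K27ac peak presence in these 4 libraries, and their H3K27ac values in these libraries are given as a description. The reverse pattern, both siNEG lists and no siFLI1 list, held for 467 promoter regions or 2.18%. Away from start sites, 5968 regions or 8.63% were gained. Just outside the rule lay 3919 promoter regions found in 1 siFLI1 list and no siNEG list, and 1494 found in both siFLI1 lists and 1 siNEG list. With 1 list fewer to meet, the count was 2588 without siNEG replicate 1, 3630 without siFLI1 replicate 1 and 4181 without siFLI1 replicate 2. At the distance limit, the member at NEK6 lay 1000 bp from its start site with a lower H3K27ac fold of 4.92, and a region at PITX1-AS1 at 1001 bp with 4.11 was left out. The weakest member by significance, at PHRF1, had a lower fold of 2.54 and a lower −log10 q of 2.05.

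The H3K27ac lists held 60027 and 60401 peaks in siNEG and 65501 and 61481 in siFLI1, and between 66.0% and 74.8% of peaks in a list overlapped its replicate's list. The siNEG libraries carry I and II in their replicate names and the siFLI1 libraries do not, and any difference this stands for cannot be told apart from the arm. Start sites of 10 Ewing sarcoma marker genes had H3K4me3 in both siNEG lists in 10 cases and H3K27ac in 9. Haematopoietic markers had H3K4me3 in 0 of 6 and H3K27ac in 1, and epithelial markers had H3K4me3 in 2 of 6 and H3K27ac in 3. The lists hold no measure of FLI1 depletion. Sequencing depth was not given in the sources used here, so the shares have no depth correction.

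H3K27ac marks nucleosomes at active promoters and enhancers and is written mainly by the acetyltransferases p300 and CBP. H3K4me3 sits at the start sites of CpG-rich promoters, also at genes with little transcription, so a promoter can hold it without H3K27ac. EWSR1::FLI1 binds DNA through the ETS domain of FLI1. It activates genes from GGAA repeats and lowers others, among them genes of the mesenchymal programme. ETS1 is a related ETS factor.

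The members differed in CpG content, and 4 windows of 300 bases from within members show this. None of the 4 windows holds the start site itself: they begin 458, 505 and 223 bases downstream of the nearest start at TNS3, SPRY2 and PTGES, and the SBF2-AS1 window ends 81 bases upstream. Each runs 5′ to 3′ on the strand of the gene named, comes from the hg38 reference, leaves out untranslated exon bases, and has every CpG dinucleotide in capitals. The first pair are the 2 members at protein-coding starts whose lower fold of the 2 siFLI1 libraries was highest, and the second pair come from the members that also gained H3K4me3. The TNS3 window (chr7:47380385-47380684, minus strand) lies within the gene and holds 7 CpG. For SPRY2 (chr13:80340322-80340621, minus strand) the window holds 30 CpG. The PTGES window (chr9:129752497-129752796, minus strand) holds 11, and that of SBF2-AS1 (chr11:9775265-9775564, plus strand) holds 2.
TNS3: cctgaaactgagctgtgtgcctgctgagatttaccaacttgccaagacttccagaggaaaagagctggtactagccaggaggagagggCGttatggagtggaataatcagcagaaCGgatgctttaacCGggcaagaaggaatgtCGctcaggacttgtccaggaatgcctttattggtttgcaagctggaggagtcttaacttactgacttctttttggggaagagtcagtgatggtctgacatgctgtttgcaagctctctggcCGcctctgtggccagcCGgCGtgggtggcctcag
SPRY2: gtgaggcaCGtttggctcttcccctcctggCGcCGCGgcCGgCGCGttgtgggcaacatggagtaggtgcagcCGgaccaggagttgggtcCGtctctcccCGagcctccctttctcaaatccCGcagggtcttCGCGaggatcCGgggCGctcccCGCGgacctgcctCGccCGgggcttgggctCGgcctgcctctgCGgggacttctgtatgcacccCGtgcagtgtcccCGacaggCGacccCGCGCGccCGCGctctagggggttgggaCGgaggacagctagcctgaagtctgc
PTGES: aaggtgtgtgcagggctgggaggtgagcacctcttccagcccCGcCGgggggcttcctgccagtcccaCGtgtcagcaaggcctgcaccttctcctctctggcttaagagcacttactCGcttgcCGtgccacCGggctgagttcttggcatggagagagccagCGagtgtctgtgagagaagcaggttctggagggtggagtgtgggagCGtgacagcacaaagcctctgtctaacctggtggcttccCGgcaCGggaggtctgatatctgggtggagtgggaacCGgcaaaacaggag
SBF2-AS1: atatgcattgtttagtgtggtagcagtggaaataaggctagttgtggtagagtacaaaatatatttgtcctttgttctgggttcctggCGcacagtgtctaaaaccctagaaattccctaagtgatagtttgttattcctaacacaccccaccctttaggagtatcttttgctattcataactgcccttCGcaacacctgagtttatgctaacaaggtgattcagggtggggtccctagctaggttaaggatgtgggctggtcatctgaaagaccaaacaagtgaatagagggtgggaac
The CpG observed over expected ratio was 0.82 in the SPRY2 window and 0.36, 0.40 and 0.14 in those of TNS3, PTGES and SBF2-AS1. The SPRY2 window lies off the member's centre, where untranslated bases lie and the ratio was 1.03, and the other 3 are centred. Of the 4 members, that at SPRY2 overlapped H3K4me3 in both siNEG lists and the other 3 overlapped it in neither.

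In the authors' lists, where fold is a peak's own enrichment over background, the members were modest peaks. Their median fold was 4.56 in siFLI1 replicate 1 and 4.65 in replicate 2, with ranges of 2.22 to 23.2 and 2.20 to 16.5. These medians lay at percentiles 46.6 and 45.9 of the 2 lists, near the middle. Promoter regions present in all 4 lists had medians of 9.46 and 9.10, at percentiles 85.6 and 84.1. The members were also narrower, with a median width of 680 bp against 1910 bp.

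The member at TNS3, which encodes the focal adhesion protein tensin-3, had H3K27ac folds of 14.6 and 14.4 in siFLI1 replicates 1 and 2 (chr7:47379553-47381517, intronic). At SPRY2, an inhibitor of receptor tyrosine kinase signalling, the folds were 13.1 and 13.5 (chr13:80339610-80342084). Next in order came JPH2, a protein of cardiac muscle membrane junctions, with 23.2 and 12.6. These 3 had the highest lower fold of all members at protein-coding starts, and the replicates were close at TNS3 and SPRY2 but not at JPH2. IL4, a cytokine gene, followed with 15.4 and 11.4. CHRNA1, the alpha subunit of the muscle acetylcholine receptor, had 11.6 and 10.8. Neither overlapped siNEG H3K4me3, and the CpG ratio at their centres was 0.38 and 0.11. The folds at ABCA4, a transporter of photoreceptors, were 9.54 and 11.2. Those at MICAL2, an actin-oxidising enzyme, were 8.85 and 13.1. POMT2, a protein O-mannosyltransferase, had 8.84 and 9.51. Of the 12 members with the highest lower fold at protein-coding starts, 3 overlapped H3K4me3 in both siNEG lists: SPRY2, the stress-response gene GADD45B (8.80 and 9.92) and the transporter gene MFSD4B (8.39 and 8.88). The twelfth, KRT15, a keratin gene, differed between replicates at 17.8 and 8.37. Among lncRNA starts, ENSG00000239739 had folds of 21.0 and 16.5, ENSG00000236393 15.8 and 12.6, and PHLDA1-DT 13.0 and 13.1.

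**Figure D1:**
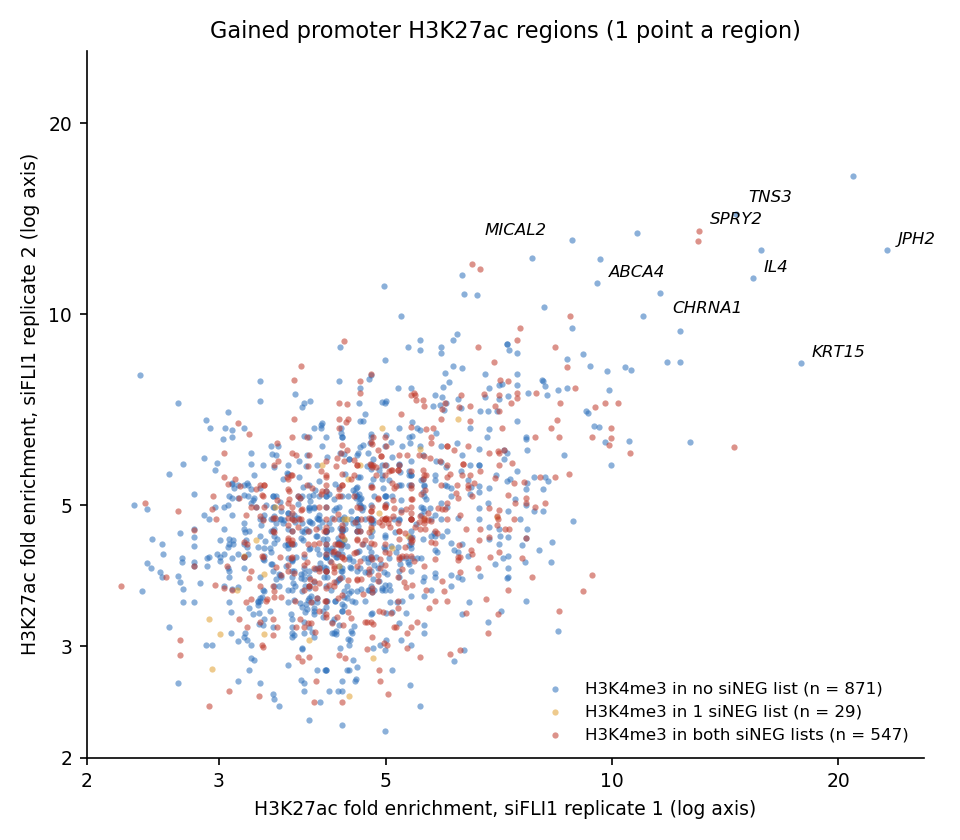
H3K27ac fold enrichment of each of the 1447 members in siFLI1 replicate 1 (horizontal, log axis) and replicate 2 (vertical, log axis), coloured by H3K4me3 in the siNEG lists, with 8 of the 12 highest members at protein-coding starts named. Most points lie between 3 and 10 in both libraries, and the 3 colours are mixed.

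Of 1447 members, 547 overlapped a peak in both siNEG H3K4me3 lists, or 37.8% (exact 95% binomial interval 35.3 to 40.4). A further 29 overlapped one in 1 siNEG list, and 871, or 60.2%, in neither. Over all 21383 promoter regions, 11929 or 55.8% had H3K4me3 in both siNEG lists. Promoter regions with H3K27ac in all 4 lists had H3K4me3 in both siNEG lists in 81.2% of cases, and lost promoter regions in 30.8% (26.7 to 35.2). Over the 1188 regions of all 4 lists whose width fell within the members' quartiles the share was 84.5%, and over the 724 members of the same widths it was 39.5% (286 members). Counted for each siNEG library alone, the 3919 promoter regions in 1 siFLI1 list only overlapped H3K4me3 in 32.4% and 33.2% of cases. The members did so in 38.4% and 39.2%. All intervals cover counting error over regions only, and not variation between libraries.

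The share of members with H3K4me3 differed between the arms by less than the SD of the siNEG libraries. It was 38.4% and 39.2% in siNEG replicates 1 and 2, and 39.0% and 39.6% in siFLI1 replicates 1 and 2. The arms overlapped, with means of 38.8% ± 0.54 (SD, n = 2) and 39.3% ± 0.44 (SD, n = 2). The difference of 0.48 percentage points gave p = 0.67 in an exact two-sided permutation test over the 4 libraries, for which the smallest possible p is 0.33. Its sign turned for members chosen without siNEG H3K27ac replicate 2 (−0.13) or without siFLI1 H3K27ac replicate 1 (−0.21) or 2 (−0.57). At lost promoter regions the difference was −2.03 percentage points, with p = 0.33 by the same exact test, and the arms did not overlap.

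**Figure D2:**
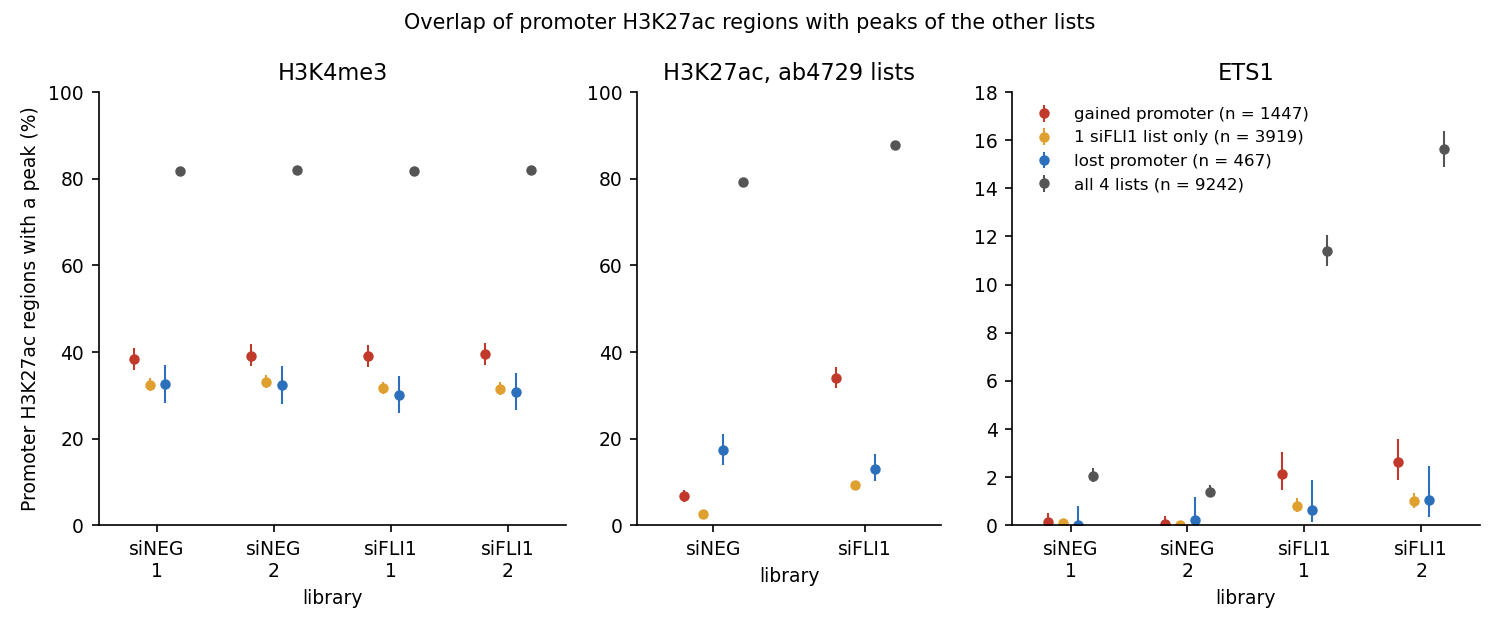
Share of promoter H3K27ac regions (vertical, percent) that overlap a peak in each H3K4me3, ab4729 H3K27ac and ETS1 library (horizontal), for 4 kinds of region, with exact 95% binomial intervals as bars. The H3K4me3 share of the gained regions lies near 39% in all 4 libraries, while their ab4729 share is 6.70% in siNEG and 34.1% in siFLI1.

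Gained H3K4me3 at the members was near the share of all promoter regions. Over the genome, 449 of 20727 merged H3K4me3 regions, or 2.17%, were present in both siFLI1 and no siNEG list, and 2.83% showed the reverse. Of the members, 5 or 0.35% overlapped such a gained H3K4me3 region and 1 or 0.07% a lost one. Of all 21383 promoter regions, 86 or 0.40% overlapped a gained one and 75 or 0.35% a lost one. The first was PTGES, which encodes a prostaglandin E synthase. Its H3K4me3 folds were 9.51 and 12.9 in siFLI1 replicates 1 and 2, beside H3K27ac folds of 6.11 and 3.73. SBF2-AS1, a lncRNA, had H3K4me3 folds of 6.78 and 9.67. FHL1, a LIM-domain protein of muscle, had 7.44 and 5.83, and TAGLN, the smooth muscle actin-binding protein transgelin, had 5.45 and 5.72. The lncRNA PKD2L2-DT had 5.40 and 5.56. All 5 were low for the mark, since the median H3K4me3 fold was 24.9 in siFLI1 replicate 1 and 24.8 in replicate 2.

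Where H3K4me3 was present in both arms, it ranked higher in knockdown cells at more members than it ranked lower. Ranks were taken within one set, the 12984 H3K4me3 regions present in all 4 H3K4me3 lists, by the highest fold in each list, so that every list was ranked over the same regions. A merged region can reach past the member, so its percentile need not come from a peak over the member itself. Of these, 542 overlapped a member. Their median percentile was 52.4 and 51.4 in siNEG replicates 1 and 2, and 56.3 and 58.8 in siFLI1 replicates 1 and 2. Both siFLI1 ranks stood above both siNEG ranks in 196 of the 542, or 36.2%, against 23.2% of all 12984 regions. The reverse held in 69, or 12.7%, against 21.9%. At the 6799 regions that overlapped H3K27ac of all 4 lists and no member, the 2 shares were 20.9% and 20.5%. At the 139 that overlapped a lost promoter region they were 15.1% and 48.2%. Ranking by −log10 q in place of fold gave 44.1% above at the members and 29.1% over all regions. These shares are a description, with no test, and this comparison was chosen after the data were seen.

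Individual members differed in this. At SPRY2 the H3K4me3 folds were 25.7 and 23.1 in siNEG and 86.4 and 36.2 in siFLI1, so that the arms did not overlap but the siFLI1 libraries were far apart. COL5A1, a fibrillar collagen gene, had 10.5 and 15.3 in siNEG and 41.1 and 40.3 in siFLI1. The percentiles within the common set were 15.2 and 21.8, and then 50.9 and 49.5. COL1A1, which encodes a chain of type I collagen, had folds of 4.69 and 3.03 and then 25.4 and 24.7, with percentiles of 2.53 and 0.56 and then 30.9 and 29.9. The widest separation, chosen after its values were seen, was at SULF2, an extracellular heparan sulfatase, where the merged region had percentiles of 2.299 and 5.48 in siNEG and 65.5 and 56.1 in siFLI1. No siNEG H3K4me3 peak overlapped the SULF2 member itself, and the siNEG percentiles come from peaks elsewhere in that region. GATA2, a transcription factor gene picked in the same way, had 23.7 and 30.2 and then 72.2 and 70.2. The merged region at KLF6, a zinc finger transcription factor gene, had lower percentiles in knockdown cells, with 94.9 and 99.4 in siNEG and 86.0 and 80.4 in siFLI1. The peaks over the KLF6 member itself did not show this, with folds of 3.12 and 109 in siNEG, where the replicates were far apart, and 3.73 and 3.66 in siFLI1.

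**Figure D3:**
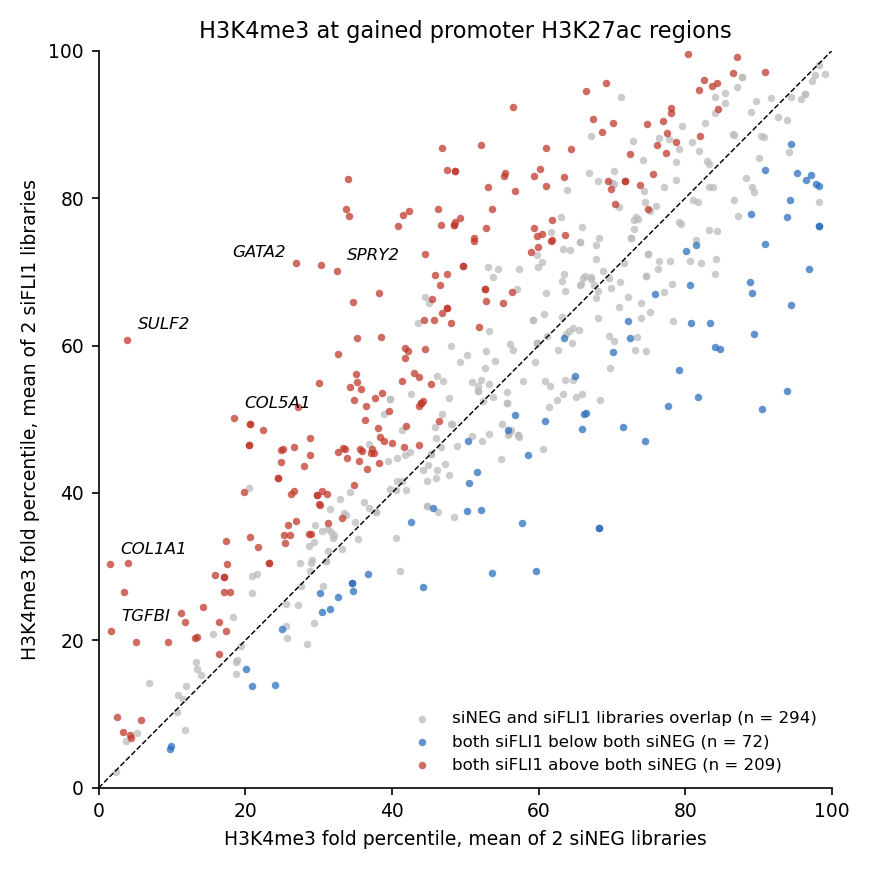
H3K4me3 fold percentile at the 575 members that overlap an H3K4me3 region of all 4 lists, as the mean of the 2 siNEG libraries (horizontal) and of the 2 siFLI1 libraries (vertical), each point a member and the dashed line equality. Both siFLI1 libraries rank above both siNEG libraries at 209 members and below both at 72, and 6 genes named in the text are marked.

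A separate pair of H3K27ac libraries, labelled ab4729, was not used to choose the members, and whether it came from the same chromatin was not given in the sources used here. In the siNEG ab4729 list 97 members had a peak, or 6.70% (exact 95% binomial interval 5.47 to 8.12), and in the siFLI1 list 493 did, or 34.1% (31.6 to 36.6). A peak in the siFLI1 list only was found at 418 members, or 28.9%, against 12.7% of all promoter regions. A peak in the siNEG list only was found at 22 members, or 1.52%, against 3.5%. Neither list had a peak at 932 members, and both had one at 75. Promoter regions of all 4 lists went from 79.2% to 87.8%, and lost promoter regions from 17.3% to 13.1%. The 2 ab4729 lists differed in length, with 32738 and 51663 peaks. Over all promoter regions the share went from 39.2% to 48.4%. When the same number of strongest peaks was taken from both, the difference at the members fell from 27.4 to 14.4 percentage points. The equal-length difference was not computed for other regions. For members chosen without siFLI1 H3K27ac replicate 1 or 2 it was 16.9 or 14.9. There was 1 ab4729 library an arm, so the difference has no replicate check.

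The ab4729 difference appeared with and without prior H3K4me3. Members with H3K4me3 in both siNEG lists went from 14.3% to 41.7%, and those with none from 2.18% to 29.6%. TNS3 had an ab4729 fold of 5.49 in siFLI1 and no siNEG peak, and SPRY2 likewise had 6.402. JPH2 had 8.40, IL4 10.97, CHRNA1 7.82 and ABCA4 9.01, each with no siNEG peak. KRT15 had no ab4729 peak in either list. Of the 12 highest members at protein-coding starts, MFSD4B alone had a peak in both, with folds of 4.55 and 8.32.

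ETS1 peaks were few at the members and were found mostly in knockdown cells. They overlapped 2 and 1 of the 1447 members in siNEG replicates 1 and 2, or 0.14% and 0.07%, and 31 and 38 in siFLI1 replicates 1 and 2, or 2.14% and 2.63%. The difference between the arm means was 2.28 percentage points. For members chosen without siNEG H3K27ac replicate 1 it was 3.55, and without siFLI1 H3K27ac replicate 1 or 2 it was 1.36 or 1.28. At promoter regions of all 4 lists the shares were 2.07% and 1.40%, and then 11.4% and 15.6%. The ETS1 lists held 302 and 208 peaks in siNEG and 1633 and 2635 in siFLI1, and 44% of merged ETS1 regions were in both siFLI1 lists and no siNEG list. The peak names in the siFLI1 replicate 1 list carry the number of replicate 2, so these lists are given as values, with no SD and no test. Of the 22 members with a gained ETS1 region, 21 had H3K4me3 in both siNEG lists and 0 were among the 871 with none. The 22 are 1.52% of the members, against 911 or 4.26% of all promoter regions. Of the 767 regions of all 4 H3K27ac lists with a gained ETS1 region, 752 had H3K4me3 in both siNEG lists and 8 in none.

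The highest lower ETS1 fold, among members that overlapped an ETS1 peak in both siFLI1 lists and in no siNEG list, was at ZSWIM4, a zinc finger gene whose start is flanked by 2 members. Both overlapped the same ETS1 peaks, with folds of 13.1 and 20.4 in siFLI1 replicates 1 and 2. Neither is among the 22, since the merged ETS1 region there did not count as gained. That region thus also held a siNEG ETS1 peak, which overlapped neither member. The member downstream of the start had H3K27ac folds of 8.73 and 8.24, and the one upstream 7.48 and 7.51. The downstream member also had an ab4729 peak in both arms, with folds of 8.23 in siNEG and 7.997 in siFLI1, while the upstream one had 5.49 in siFLI1 and no siNEG peak. ZBTB12, another zinc finger gene, had ETS1 folds of 8.45 and 9.59. ACVR1, which encodes a type I receptor for bone morphogenetic proteins, had 8.45 and 8.97. At ACVR1 the H3K27ac folds were 9.80 and 7.24, and the H3K4me3 percentiles were 49.3 and 45.7 in siNEG and 71.7 and 58.4 in siFLI1, with no overlap. MIR3181, a miRNA gene, had ETS1 folds of 6.88 and 11.95 and is not among the 22 either.

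The classes with and without prior H3K4me3 were different kinds of start site. A canonical protein-coding start lay within 1 kb of the centre in 66.2% of the 547 members with H3K4me3 in both siNEG lists (362 members) and in 7.35% of the 871 with none (64 members). The nearest start belonged to a lncRNA in 13.7% and 26.9%. A CpG-rich window at the start, with a CpG ratio of at least 0.6 and GC of at least 50% over 300 bases, was found in 68.9% and 4.48%. Centres lay in introns in 47.9% and 60.5%. Promoter regions of all 4 lists split in the same way: a CpG-rich start was found in 79.6% of those with H3K4me3 in both siNEG lists and 5.16% of those with none. The same split was thus seen outside the members, which held a larger share of regions without H3K4me3.

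**Figure D4:**
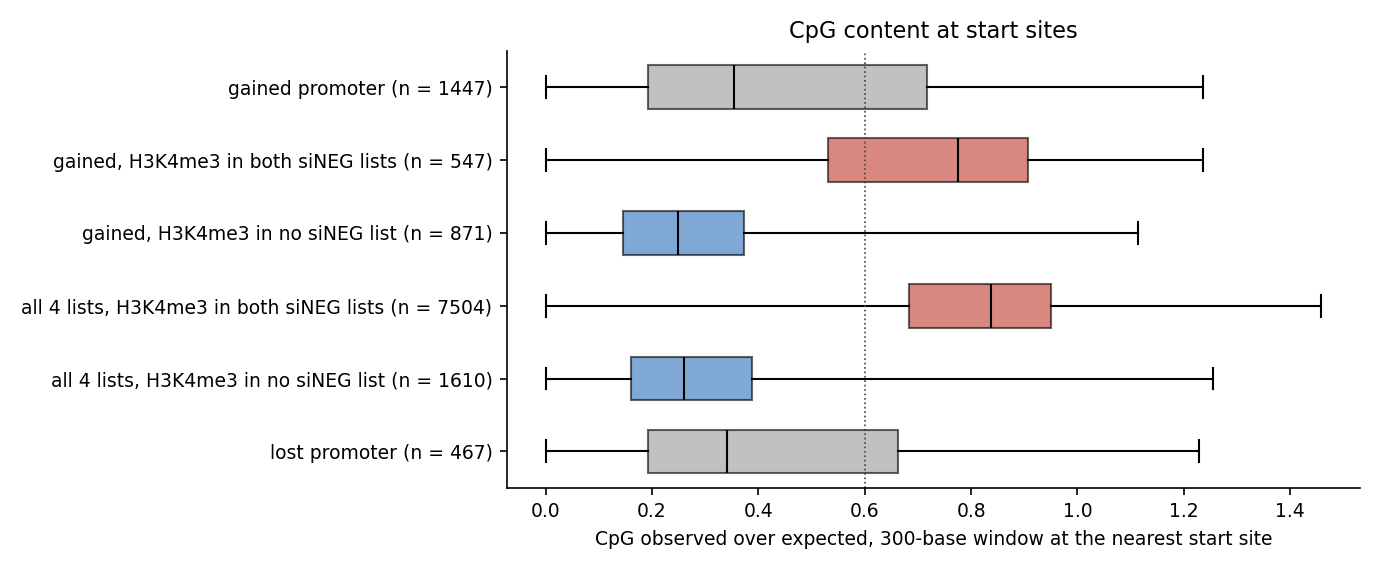
CpG observed over expected (horizontal) in a 300-base window at the nearest start site, by kind of promoter H3K27ac region. Boxes give the quartiles with the median as a line, whiskers reach the lowest and highest region, and the dotted line marks 0.6. Medians were 0.78 and 0.25 for gained regions with and without siNEG H3K4me3, and 0.84 and 0.26 for regions of all 4 lists.

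The AP-1, ETS, GC-box and TATA letters were found at different shares in the 2 classes, and the TEAD shares lay closer together. Searched on both strands of the 300 bases around the centre, the AP-1 letters TGANTCA were found in 5.48% of members with H3K4me3 in both siNEG lists and 11.8% of those with none. The ETS letters CCGGAA were found in 15.7% and 3.33%. Among regions of all 4 lists the AP-1 letters were in 5.12% and 13.0% of the same classes and the ETS letters in 17.7% and 4.16%. Over all 21383 promoter regions the shares were 7.34% for AP-1 and 10.3% for ETS. The GC-box letters GGGCGG were in 46.4% and 9.99% of the 2 member classes, in 46.5% and 10.25% of the 2 classes of all 4 lists and in 28.4% of all promoter regions. The TEAD letters ACATTCC were in 3.66% and 5.40%, 2.69% and 4.35%, and 3.56%. The NRF1 letters, GCGC and TGCGC with any 1 base between, were in 0.18% of members with H3K4me3 in both siNEG lists (1 of 547), in 0.23% of those with none (2 of 871) and in 2.68% of regions of all 4 lists with H3K4me3 in both siNEG lists (201 of 7504). In the 300-base window at the start the NRF1 shares of the 2 kinds of region with H3K4me3 were closer, at 7.31% (40 of 547) and 9.97% (748 of 7504). Runs of at least 4 GGAA units were found no more than 1 kb from the centre in 10 members, or 0.69%, which was also the share of all promoter regions (147 regions). Among lost promoter regions the share was 3.64% (17 regions).

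Many members lay beside acetylation that control cells already had. A siNEG H3K27ac peak lay within 1 kb in 519 members, or 35.9%, and none lay within 10 kb in 482, or 33.3%. The median gap was 3041 bp. The share with a siNEG peak within 1 kb was 48.99% in members with H3K4me3 in both siNEG lists and 27.1% in those with none. Without the 519, 928 members remained, of which 30.1% had H3K4me3 in both siNEG lists. The group with prior H3K4me3, a canonical protein-coding start and no siNEG H3K27ac within 1 kb held 201 members, and 138 of them had none within 10 kb. Besides SPRY2 it held ACVR1, and also EDN1, the endothelin-1 gene, picked after its values were seen. EDN1 had H3K27ac folds of 6.97 and 8.41 and H3K4me3 folds of 5.67 and 4.29 in siNEG and 23.02 and 20.5 in siFLI1.

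Counted by gene, 1026 protein-coding genes had a gained promoter region, or 9.45% of the 10858 with any promoter H3K27ac region. Lost regions were found at 327, or 3.01%. For 304 of the 1026, or 29.6% (exact 95% binomial interval 26.8 to 32.5), no siNEG H3K27ac peak lay within 1 kb of any of their starts. Of these 304, 225 or 74.0% had siNEG H3K4me3 in both lists within 1 kb of a start. Of the other 722 genes, 698 or 96.7% did. A promoter region in all 4 lists was also present at 495 of the 1026, or 48.2%. There were 114 genes with 2 or more gained regions. FHL1 had 4 among 8 promoter regions, NXN 4 among 6 and TCEANC 4 among 5. TGFBI, which encodes a matrix protein, had 3 gained among its 3 promoter regions and no siNEG H3K27ac at any start. FN1, the fibronectin gene, had 3 among 11.

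The 12 gene lists were drawn up with earlier results of these data known, so their shares are not independent evidence of a direction. Mesenchymal and matrix genes had gained regions in 8 of the 27 genes with a promoter region, or 29.6%, against 9.45% of all genes. Since genes differ in their number of starts, the regions are given too: 13 of 79, or 16.5%, against 6.77% of all promoter regions. The 8 were the collagen genes COL1A1 and COL5A1, FN1, the laminin gene LAMB1, the metalloproteinase inhibitor gene TIMP2, the N-cadherin gene CDH2, the TGF-beta co-receptor gene ENG and ANXA2. Their H3K27ac folds were low to moderate. At COL1A1 they were 4.80 and 3.65 in siFLI1 replicates 1 and 2, and at COL5A1 3.20 and 5.36. FN1 had 4.66 and 4.34 at its highest member, TIMP2 5.41 and 5.59, CDH2 4.16 and 4.76, and LAMB1 4.90 and 2.75 at its canonical start. ANXA2 had 5.01 and 7.29 and ENG 4.39 and 3.23. The ENG member lay 9 bp and the COL1A1 member 905 bp from a siNEG H3K27ac peak, and FN1, LAMB1 and ANXA2 also had members within 1 kb of one. Prior H3K4me3 in both siNEG lists was found at the members of COL1A1, COL5A1, CDH2 and ENG and at 1 of the 2 of LAMB1. It was absent at those of FN1, TIMP2 and ANXA2. No canonical protein-coding start lay within 1 kb of the members of FN1, TIMP2, ANXA2 or ENG. FN1 also had 3 promoter regions present in all 4 lists. In this list 1 gene had a lost region.

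Genes of integrins, focal adhesion and actin had gained regions in 13 of 46, or 28.3%, and in 18 of 139 promoter regions, or 12.9%. Lost regions were found at 5 of the same 46, or 10.9%, against 3.01% of all genes, so both shares were above the background. The highest after TNS3 was LMOD1, an actin nucleator of smooth muscle, with 12.7 and 6.28 and an ab4729 fold of 11.04 in siFLI1. TAGLN had 6.14 and 8.27. MYH9, a non-muscle myosin heavy chain gene, had 5.37 and 5.59, ITGB5, an integrin subunit gene, 4.99 and 5.18, and TNS1, a paralogue of TNS3, 4.82 and 5.91. Of these 6 genes, TAGLN alone had gained H3K4me3, and none of their members overlapped it in both siNEG lists. A canonical protein-coding start lay within 1 kb of the members of LMOD1 and TAGLN only.

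TGF-beta and BMP signalling had 5 of 27 genes, or 18.5%, and 10 of 58 regions, or 17.2%. Besides the receptor ACVR1 these were the signal transducers SMAD1 and SMAD3, the target TGFBI and BMP1, a procollagen protease. SMAD1 had folds of 4.21 and 4.08, and SMAD3 3.13 and 3.68 at its higher member. TGFBI had 8.48 and 7.60 at its strongest member, which lies in an intron and had no H3K4me3 in any list. Its member at the canonical start had 3.44 and 3.90, with an H3K4me3 fold of 3.70 in siNEG replicate 2 alone and 16.97 and 17.05 in siFLI1. BMP1 had 7.69 and 6.41. No canonical protein-coding start lay within 1 kb of the members of SMAD1, SMAD3 or BMP1. A lost region was found at 1 gene of the list.

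The list of genes known to be lowered by the fusion had gained regions in 5 of 10, or 50%, and 0 lost. Like the other lists, that list was drawn up with earlier results of these data known, so its count is not independent evidence of a direction. The 5 were TNS3, PHLDA1, the ETS1 gene itself, the transcription factor gene FOXO1 and JAG1, a Notch ligand. ETS1 had a member of 1750 bp at one of its starts (chr11:128521621-128523370, nearest start MIR6090) with folds of 9.42 and 6.41. The nearest siNEG H3K27ac peak lay 265596 bp away. Its H3K4me3 folds were 12.8 and 11.4 in siNEG and 27.9 and 27.8 in siFLI1, with no overlap. PHLDA1 shares a CpG-rich start region with PHLDA1-DT. The list counts 2 members there, with folds of 13.0 and 13.1 at the one nearest PHLDA1-DT and 4.10 and 5.20 at the other, and the H3K4me3 peak over both had 14.7 and 13.9 in siNEG and 43.0 and 32.8 in siFLI1. FOXO1 had 4.58 and 4.97, with H3K4me3 folds of 28.2 and 28.7 and then 36.5 and 38.0. JAG1 had 4.18 and 3.53, 28 bp from a siNEG H3K27ac peak. No canonical protein-coding start lay within 1 kb of the members of JAG1, ETS1 or TNS3. TNS3 had 2 further members with folds of 9.86 and 8.12 and of 4.22 and 3.67, and none of its 3 members overlapped a siNEG H3K4me3 peak.

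Genes raised by the fusion had 0 gained in 10 genes with a promoter region and 1 lost, at PRKCB. Interferon and antigen presentation genes had 0 gained in 26 and 0 lost. Near or below the background of 9.45% were YAP and TEAD pathway genes at 1 of 19 (DLC1, 5.37 and 6.41 at 1 member), AP-1 and immediate early factors at 1 of 14 (KLF6, 3.72 and 5.26), and cell cycle genes at 3 of 36 (BUB1, TOP2A and CDC6). The IGF axis had 1 of 10 (IRS2, 6.52 and 11.98), neural genes 2 of 13 (L1CAM and TUBB3), and WNT and Notch genes 3 of 19 (FZD7, JAG1 and TCF7L2). The shares of these lists were not tested against the background.

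**Figure D5:**
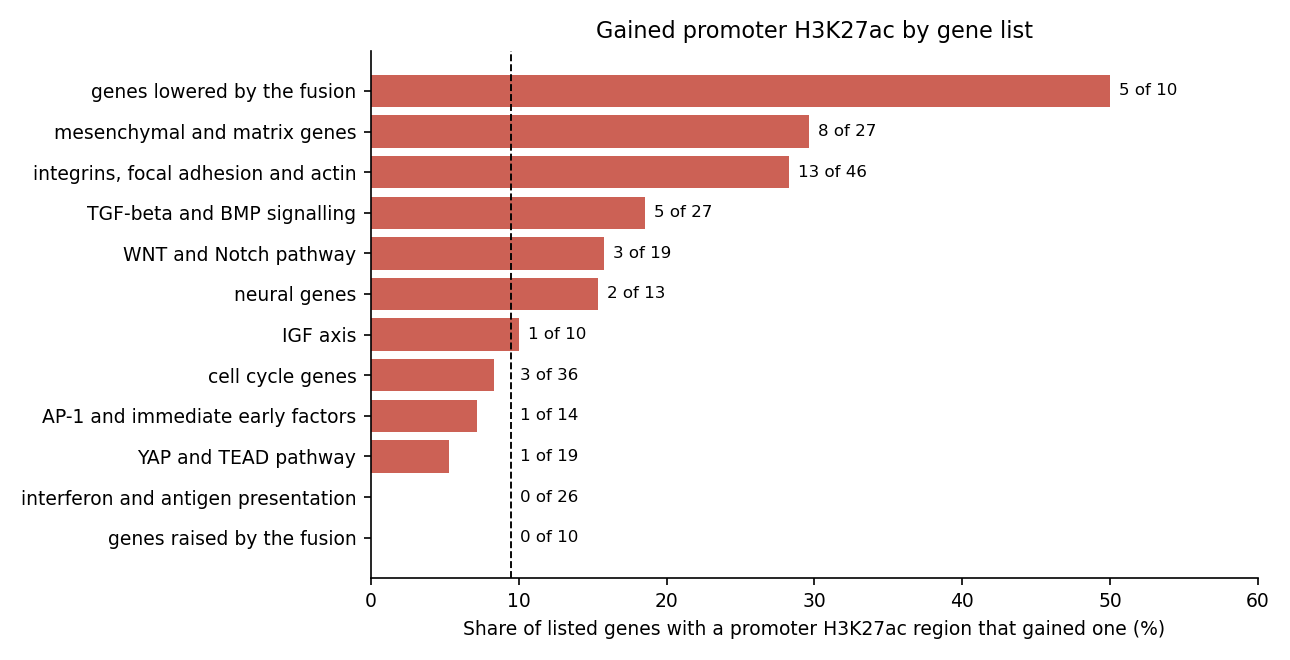
Share of listed genes with a promoter H3K27ac region that had a gained one (horizontal, percent), for 12 gene lists, with the counts beside the bars and the dashed line at 9.45%, the share over all protein-coding genes. Genes lowered by the fusion, matrix genes and adhesion and actin genes lie furthest above the line, 4 further lists lie above it, and interferon genes and genes raised by the fusion are at 0.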

How the data were processed

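The authors deposited a peak list for each immunoprecipitated library, called per library and not on pooled replicates. Per the submitters' processing notes, cutadapt 4.4, BWA 0.7.17, Picard 2.17.11 and MACS2 2.1.1 were used with hg38, and the fly build dm6 is also listed with no role given. Each peak carries the authors' fold enrichment (a ratio), −log10 p-value and −log10 q-value, and an integer score. Every deposited peak had a −log10 q of about 2 or more.

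Peaks on chromosomes 1 to 22 and X were merged at 1 bp overlap with Python 3.11.15, pandas 2.3.3 and numpy 2.4.6, and centres were measured to every GENCODE release 44 transcript start. Merging was tested on simulated intervals. Overlap with other lists needed 1 bp, and intervals are exact binomial (scipy 1.17.1). No reads were counted, so absence from a list means only that no peak was called. Promoter peaks overlapping 2 genes are given under both. The members and the 12 gene lists were chosen with earlier results of these data known. Named members were the 12 highest at protein-coding starts by the lower siFLI1 fold, up to 10 with gained H3K4me3, up to 5 with an ETS1 peak in both siFLI1 lists and no siNEG list, those of the gene lists (6 where a list had over 12 genes) and 3 lncRNAs, and 1 of them is not reported here. Alternatives covered the overlap rule, peak significance, list length, start-site distance and each library left out.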

Additional observations from a re-analysis of the deposited data

How the results depend on the processing

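Of 74 values recomputed under other settings, 40 stayed within the interval of the reported value, within 1.5 times for the count of members, or on the same side of 0 for the tested difference, 31 moved further and 3 reversed. The 1447 members became 928 without those within 1 kb of a siNEG H3K27ac peak and 964 at a 500 bp start-site limit, and leaving out 1 H3K27ac library gave 1933 to 4181, since 1 list fewer then had to agree. The share with H3K4me3 in both siNEG lists, 37.8%, was 42.9% at a −log10 q of at least 5, 30.1% without the members near siNEG H3K27ac, 46.2% at 500 bp, 31.3% at 2 kb, 46.7% with protein-coding starts only and 42.2% when H3K4me3 within 1 kb counted. Leaving out 1 library gave 35.2% to 51.3%. The H3K4me3 difference of 0.48 percentage points ranged from −0.57 to 0.86 when 1 library was left out. It turned negative without siNEG H3K27ac replicate 2 (−0.13) and without siFLI1 H3K27ac replicate 1 (−0.21) or 2 (−0.57), the cause was not tested, and no alternative gave p below 0.33. The labels do not say that a replicate number marks a shared batch. With the replicate block, pairing same-numbered libraries, the difference was 0.48 with exact p = 0.5, the smallest that 2 pairs allow.

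The ab4729 difference of 27.4 percentage points was 31.4 at a −log10 q of at least 5, 32.3 without members near siNEG H3K27ac and 14.4 with equal ab4729 list lengths, and leaving out 1 library gave 14.9 to 26.5. For ETS1 the difference of 2.28 ranged from 1.28 to 3.55 when 1 library was left out. Genes with no siNEG H3K27ac at any start, 29.6%, were 36.1% at a −log10 q of at least 5 and 20.7% to 41.7% with 1 library left out. H3K4me3 regions at members with siFLI1 ranks above siNEG, 36.2%, were 44.1% by −log10 q, 44.5% away from siNEG H3K27ac and 48.3% to 53.5% with 1 library left out, beside 36.4% to 37.7% over all regions. The number of libraries and the lack of depth limit every comparison to called peaks.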
